A study of Mus musculus with 12 samples.

Results

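A set of 10 genes of nitric oxide and endothelin signalling, the pathways that relax and constrict blood vessels, were followed across whole-lung RNA sequencing libraries of newborn mice. The genes were taken by their symbols: the nitric oxide synthases Nos1, Nos2 and Nos3, the guanylyl cyclase subunit Gucy1a3, the phosphodiesterase Pde5a, the kinase Prkg1, the peptide precursor Edn1, its processing enzyme Ece1, and the endothelin receptors Ednra and Ednrb. All 10 were found among the 52550 genes of the count table, and all 10 passed the filter on low counts. The 12 libraries came from 12 mice on a C57Bl/6J background, with 3 mice in every one of 4 groups. Both WT animals and Adm+/- animals, in which 1 copy of the adrenomedullin gene is lost in the germline and so in every cell, received lipopolysaccharide (LPS) of Escherichia coli, a bacterial endotoxin, or the vehicle phosphate-buffered saline (PBS). LPS was injected into the abdomen at 6 mg/kg daily from postnatal day 3 to 5, and the lungs of every group were taken 6 h after dose 3. The study used this treatment as a model of bronchopulmonary dysplasia, the chronic lung disease of preterm infants, and asked how adrenomedullin, a vasodilator peptide, shapes the response. Mice lacking both copies die before birth, so Adm+/- lungs still make adrenomedullin. In whole lung, fewer cells of a type and less RNA per cell cannot be told apart.

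Nitric oxide is made from arginine by Nos1 (the neuronal and muscle enzyme), Nos2 (the enzyme induced in inflammation) and Nos3 (the endothelial enzyme). In smooth muscle it activates soluble guanylyl cyclase, a dimer of an alpha subunit such as the product of Gucy1a3 and the beta subunit encoded by Gucy1b3. The cGMP formed activates the kinase Prkg1 and relaxes the vessel, and Pde5a breaks cGMP down. Endothelin-1, the Edn1 product, is cut to its active form by Ece1. It constricts vessels through Ednra on smooth muscle, while Ednrb on lung endothelium clears the peptide and can drive nitric oxide release.

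Total counts per library ranged from 22382535 to 38062873. Adm, the targeted gene, was low throughout. Its CPM (counts scaled to a common library size, after TMM normalization) were 3.96, 7.09 and 4.57 in WT PBS and 7.77, 8.15 and 4.46 in WT LPS. They were 4.58, 2.87 and 3.62 in Adm+/- PBS and 3.74, 6.28 and 3.92 in Adm+/- LPS. Adm+/- libraries were lower on average, by a log2 fold change of -0.50 ± 0.32 (SE) in PBS (adjusted p = 0.999) and -0.55 ± 0.31 in LPS (adjusted p = 0.48), but the ranges overlapped and neither difference passed the test. The tissue was lung by its markers, since the 7 type II pneumocyte genes summed to between 12986 and 16648 CPM in every library. WT PBS replicate 5 and Adm+/- PBS replicate 6 stood apart, with protein-coding shares of 77.8% and 80.1% of their counts, whereas the other 10 libraries had 84.3 to 87.6%. The LPS calls of the 10 genes were the same without both of them. Neutrophil marker genes, led by S100a9, S100a8 and Ltf, summed to between 40.7 and 185 CPM in PBS and between 1606 and 2965 CPM in LPS, and the part of changing cell composition in the results that follow was not tested except where values are given.

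Levels of different genes were compared per kb of exonic length. In WT PBS lungs Ece1 was highest at 70.4 ± 6.93 CPM per kb (SD, n = 3), followed by Gucy1a3 at 68.5 ± 4.85, whose range overlapped that of Ece1, and by Pde5a at 60.0 ± 6.52. Then came Ednra at 32.4 ± 9.57 and Ednrb at 25.3 ± 4.74 CPM per kb, again with overlapping ranges. Edn1 at 10.6 ± 1.57, Nos3 at 7.40 ± 1.84 and Prkg1 at 7.19 ± 0.97 CPM per kb each overlapped their neighbour in this order. Nos2 at 4.10 ± 0.68 lay below them, and Nos1 at 0.055 ± 0.0061 CPM per kb was far below all others. In PBS lungs the processing enzyme, the cyclase subunit and Pde5a were thus abundant and the synthases were not. In Adm+/- LPS lungs the order had shifted. Ednra at 49.1 ± 1.67 CPM per kb overlapped Gucy1a3 at 51.5 ± 3.88 and stood above Pde5a at 36.5 ± 2.35. Nos2 at 16.2 ± 2.48 overlapped Edn1 at 16.7 ± 2.57 CPM per kb and stood above Nos3 at 8.32 ± 1.08.

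**Figure D1:**
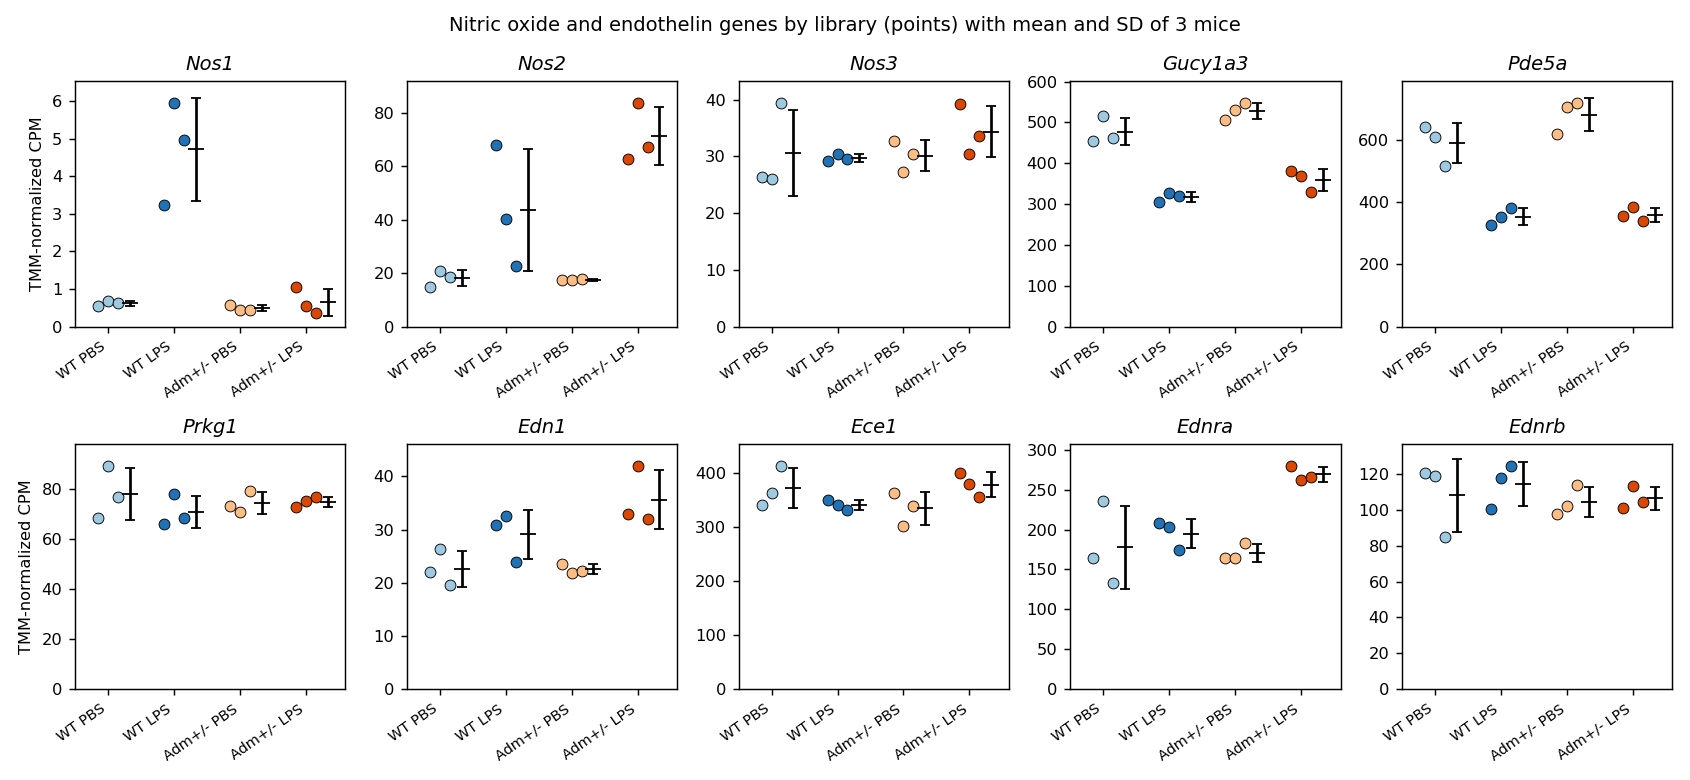
TMM-normalized CPM (linear axes starting at 0) of the 10 genes in each library (points), with the mean and SD of 3 mice beside each group. Gucy1a3 and Pde5a lie lower in every LPS library than in any PBS library of the same genotype, Nos1 is high in WT LPS alone, and Ednra in Adm+/- LPS (262 to 280 CPM) lies above all other groups.

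A call required an adjusted p under 0.05 together with a log2 fold change beyond 0.5 in either direction. In WT mice LPS changed 4 of the 10 genes: Nos1 and Nos2 rose, and Gucy1a3 and Pde5a fell. Of all 15885 protein-coding genes tested, 17.6% were called in this comparison, 10.5% as higher and 7.09% as lower. The same comparison in Adm+/- mice called 5 of the 10: Nos2, Edn1 and Ednra rose, and Gucy1a3 and Pde5a fell. The share of all genes called was 25.0% there, with 12.8% higher and 12.2% lower. The median log2 fold change of the 10 genes was 0.02 in WT and 0.18 in Adm+/- mice, against 0.01 and -0.01 over all genes tested. Nos2 up with Gucy1a3 and Pde5a down was thus found in both genotypes, while Nos3, Prkg1, Ednrb and Ece1 passed the test in neither.

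**Figure D2:**
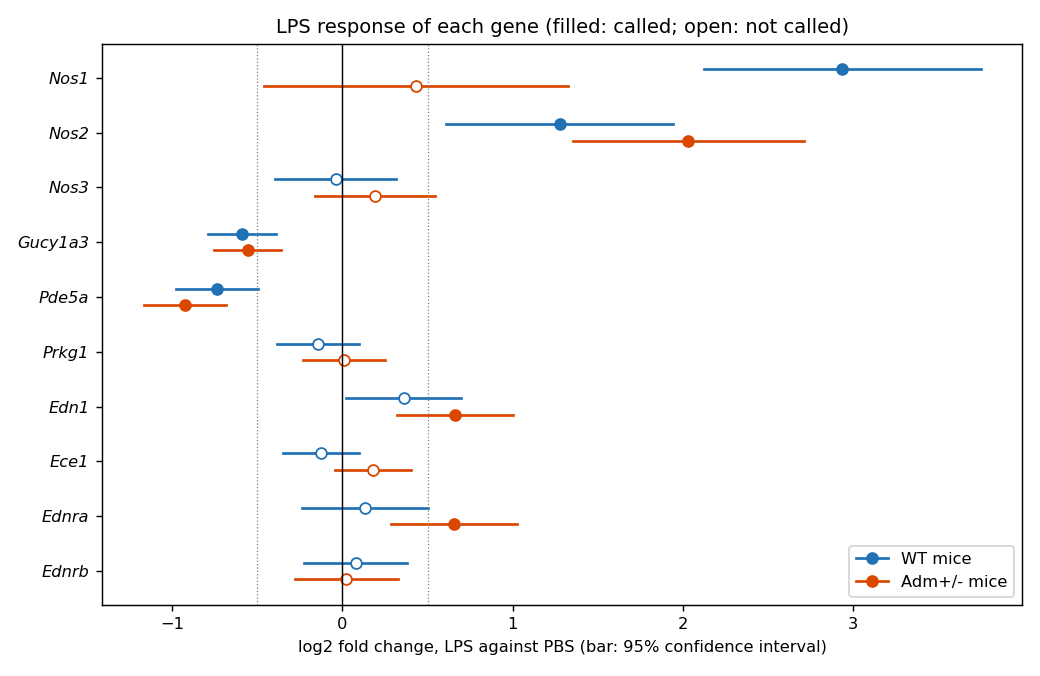
Log2 fold change of LPS against PBS for each gene in WT (blue) and Adm+/- mice (orange), with 95% confidence intervals as bars and dotted lines at the fold limit of 0.5 in either direction. Filled points passed the test: Nos1, Nos2, Gucy1a3 and Pde5a in WT, and Nos2, Gucy1a3, Pde5a, Edn1 and Ednra in Adm+/- mice.

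Nos1 showed the largest change of the 10 genes in WT mice. It measured 0.54, 0.68 and 0.62 CPM in WT PBS, which rests on 10 to 14 reads per library, and 3.24, 5.95 and 4.98 CPM in WT LPS, on 105 to 143 reads. All WT LPS libraries were several times higher than any WT PBS library. The log2 fold change was 2.94 ± 0.37 (adjusted p = 0.00053), a 7.65-fold rise. Among Adm+/- mice Nos1 was 0.58, 0.44 and 0.44 CPM in PBS and 1.05, 0.54 and 0.36 CPM in LPS. These groups overlapped, and the log2 fold change was 0.43 ± 0.41 (adjusted p = 0.454). The WT LPS libraries also held skeletal muscle transcripts. The summed CPM of 14 skeletal muscle genes, led by Acta1, Neb and Mylpf, was 23.4 to 32.6 in WT PBS, 22.0 to 27.4 in Adm+/- PBS, 34.6 to 57.7 in Adm+/- LPS, and 1634, 1620 and 613 in WT LPS replicates 9, 10 and 11. Of the 13 that could be tested, 13 rose in WT and 1 in Adm+/- mice, where 10.5% and 12.8% of all genes were called higher, and Myh4 was at 0 counts in WT PBS and Tnnc2 in Adm+/- PBS. Within WT LPS the order differed, since Nos1 was lowest in replicate 9, where the muscle sum was highest. The summed CPM of 7 neuron markers, led by Stmn2, Prph and Tubb3, was 40.5 to 46.9 in WT PBS and 22.4 to 43.3 in WT LPS. Of the 6 that could be tested in WT, 0 were called higher and 1 lower, with a list median log2 fold change of 0.58. Over all genes 10.5% were called higher and 7.09% lower there. The genes whose pattern over the 12 libraries was most like Nos1, by the root mean square difference of centred log2 CPM, were Casq1 (0.46), a calcium-binding protein of skeletal muscle, Chrna1 (0.48), a muscle acetylcholine receptor subunit, and AW551984 (0.48). The median gene differed from Nos1 by 1.32. The part of muscle or neuron transcripts in the Nos1 result was not tested.

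**Figure D3:**
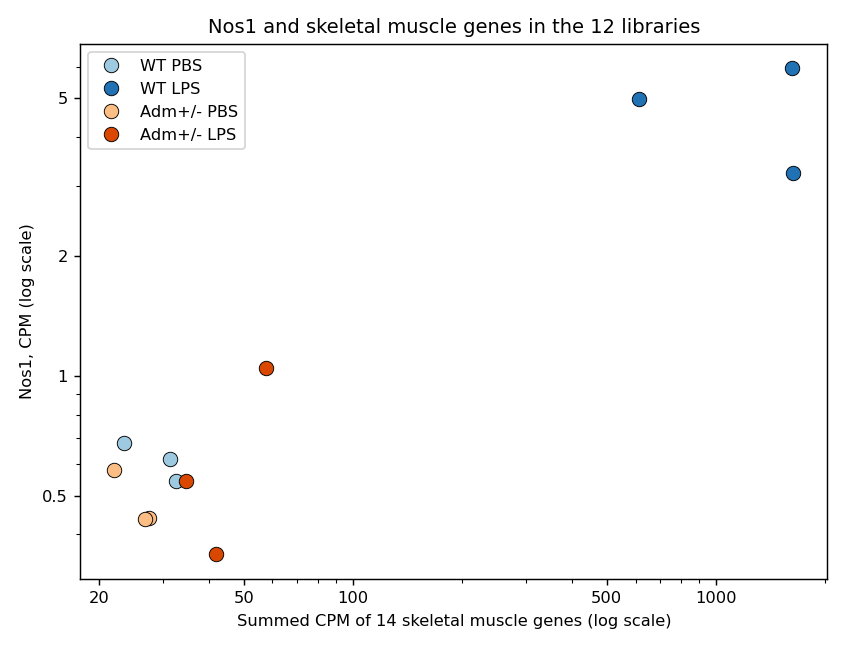
Nos1 (CPM, log axis) against the summed CPM of 14 skeletal muscle genes (log axis), 1 point per library. The 3 WT LPS libraries lie apart from the other 9 on both axes.

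Nos2 rose in both genotypes. It measured 14.8, 20.7 and 18.7 CPM in WT PBS and 67.9, 40.4 and 22.7 CPM in WT LPS, so that the lowest LPS library stood just above the highest PBS library. The log2 fold change was 1.27 ± 0.30 (adjusted p = 0.0135). Replicate 9 carried much of this rise: without it the log2 fold change was 0.80 (adjusted p = 0.0551), and in a fit of the 6 WT libraries alone it was 1.27 (adjusted p = 0.0792). In Adm+/- mice the values were tighter, at 17.3, 17.4 and 17.7 CPM in PBS and 62.8, 83.7 and 67.4 CPM in LPS, and the groups were far apart. The log2 fold change was 2.03 ± 0.31 (adjusted p = 0.00065), a 4.09-fold rise. Monocyte and macrophage markers, which mark cells that can express Nos2, were also higher in LPS in both genotypes. Their sum over 10 genes led by Lyz2, Csf1r and Mrc1 was 1053 to 1276 CPM in WT PBS and 1618 to 2233 CPM in WT LPS, and 1017 to 1242 and 1650 to 2180 CPM in Adm+/- PBS and LPS. None of the 10 was at 0 counts in a group, 8 rose in WT and 7 in Adm+/- mice, where 10.5% and 12.8% of all genes were called higher. For Adm+/- against WT in LPS their list median was -0.34, while the estimate of Nos2 was 0.71 and did not pass. Neutrophil markers rose with LPS as well, with list medians of 3.69 in WT and 4.64 in Adm+/- mice. The part of these cells in the Nos2 result was not tested. The patterns most like Nos2 were those of Pfkfb3 (root mean square difference 0.13), a glycolytic regulator, Nfkb2 (0.19), an NF-kappa B subunit, and Pim1 (0.20), a kinase, against a median of 0.95 over all genes compared.

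Nos3, the endothelial synthase, did not pass the test in either genotype. It was 26.3, 26.1 and 39.4 CPM in WT PBS, 29.2, 30.5 and 29.5 CPM in WT LPS, 32.7, 27.3 and 30.3 CPM in Adm+/- PBS, and 39.2, 30.3 and 33.6 CPM in Adm+/- LPS. The groups overlapped, with log2 fold changes of -0.04 ± 0.16 in WT (95% confidence interval -0.39 to 0.32) and 0.19 ± 0.16 in Adm+/- mice (-0.16 to 0.55). Without WT PBS replicate 5, which held the highest value of its group, the WT estimate was 0.18 (adjusted p = 0.332). The endothelial list of 12 genes, led by Cdh5, Pecam1 and Egfl7, summed to 3526 to 4400 CPM in WT PBS and 2944 to 3095 CPM in WT LPS, and to 3720 to 4201 and 3218 to 3551 CPM in Adm+/- mice, so these sums were lower in every LPS library. Of these 12 genes 3 fell in WT and 4 in Adm+/- mice, where 7.09% and 12.2% of all genes were called lower. A list of 6 general capillary genes, led by Cd93, Ptprb and Plvap, overlapped between PBS and LPS, at 2059 to 2340 and 1951 to 2123 CPM in WT and 2185 to 2471 and 2158 to 2447 CPM in Adm+/- mice. Of these 6 genes 0 fell in either genotype, while 0 rose in WT and 1 in Adm+/- mice, where 10.5% and 12.8% of all genes were called higher. The list medians were -0.13 in WT and 0.23 in Adm+/- mice. Relative to the mean log2 CPM of the 12-gene endothelial list, Nos3 was higher in every LPS library (-2.64 to -2.56 in WT and -2.55 to -2.36 in Adm+/- mice) than in any PBS library of the same genotype (-3.16 to -2.65 and -3.10 to -2.94), although the WT ranges almost met. Nos3 shares 1040 exonic bases with the antisense gene Gm15587 and 294 with Atg9b on the opposite strand. The strand option of the counting is not given in the sources used here, so reads of these genes may not be fully separated.

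The supply of substrate and cofactor was read from 20 further genes of nitric oxide synthesis. In WT mice 5 rose, 2 fell and 13 were not called, with a list median of -0.16. In Adm+/- mice 4 rose, 5 fell and 11 were not called, with a median of -0.12. Over all genes, 10.5% were called higher and 7.09% lower in WT, and 12.8% and 12.2% in Adm+/- mice. Gch1, the rate-limiting enzyme of the cofactor tetrahydrobiopterin, rose by a log2 fold change of 1.08 ± 0.20 in WT (adjusted p = 0.00438) and 1.94 ± 0.21 (adjusted p = 9.72e-05) in Adm+/- mice, from 7.33 to 7.54 CPM in WT PBS to 11.03 to 18.89 CPM in WT LPS, and from 6.40 to 8.48 to between 25.73 and 34.98 CPM in Adm+/- mice. Gchfr, which inhibits Gch1, fell in Adm+/- mice (-1.17 ± 0.31, adjusted p = 0.0154) and measured -0.92 in WT (adjusted p = 0.0626). Ddah2, which removes an endogenous inhibitor of the synthases, fell in WT (-1.15 ± 0.28, adjusted p = 0.0152) and Adm+/- mice (-0.85 ± 0.28, adjusted p = 0.0376). Its WT estimate was -0.69 without WT PBS replicate 5, and the WT call was lost without WT LPS replicate 9 (adjusted p = 0.0745) and in a fit of the WT libraries alone (adjusted p = 0.0721). Its Adm+/- call was lost in 6 of the 12 fits that leave out 1 library, where the estimate ranged from -0.97 to -0.66. The Adm+/- call of Gchfr was lost without Adm+/- PBS replicate 6 (adjusted p = 0.0515) or Adm+/- LPS replicate 2 (adjusted p = 0.0634). Its WT value was -0.55 without WT PBS replicate 5. It was called in WT by DESeq2 (adjusted p = 0.0339), and by edgeR without WT PBS replicate 4 (adjusted p = 0.0486) or WT LPS replicate 10 (adjusted p = 0.0418).

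Gucy1a3 fell in both genotypes. Its partner Gucy1b3 was lower in LPS in both as well, but was called in Adm+/- mice only, with the WT value just short of the fold limit. Both genes lie on the minus strand of chromosome 3, with 17.7 kb between them and no protein-coding gene in the gap. The bases upstream of their first exons are shown because Gucy1b3 had the pattern most like Gucy1a3 (RefSeq start sites, build GRCm38.p6, minus strand, each window ending just before the RefSeq start site or, where the gene's own Gencode exons reached into it, before those exons). The Gucy1a3 window is chr3:82145790-82145900 and the Gucy1b3 window chr3:82074712-82074961. Capitals mark matches to the GC box GGGCGG and the CCAAT box CCAAT, which reads ATTGG where it lies on the other strand.
Gucy1a3: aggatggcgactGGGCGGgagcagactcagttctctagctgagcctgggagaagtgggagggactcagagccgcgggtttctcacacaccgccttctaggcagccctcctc
Gucy1b3: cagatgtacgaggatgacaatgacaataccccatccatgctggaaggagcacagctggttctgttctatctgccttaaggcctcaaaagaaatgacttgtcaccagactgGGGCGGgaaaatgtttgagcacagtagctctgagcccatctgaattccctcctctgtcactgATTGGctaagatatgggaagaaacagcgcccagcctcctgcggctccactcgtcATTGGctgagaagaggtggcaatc
Both windows hold a GC box, and the Gucy1b3 window holds 2 reverse CCAAT boxes as well. The Gucy1a3 window is 111 bases long, since 139 bases in its exons were left out, and the window of its other RefSeq start held none of the motifs searched. These are common motifs: of 32851 RefSeq windows of 250 bases, 32.7% hold a GC box and 33.8% a CCAAT box.

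Gucy1a3 measured 454, 516 and 462 CPM in WT PBS and 305, 326 and 321 CPM in WT LPS. Adm+/- mice had 506, 532 and 547 CPM in PBS and 380, 368 and 329 CPM in LPS. No LPS library reached the lowest PBS library of its genotype. The log2 fold changes were -0.59 ± 0.09 in WT (adjusted p = 0.00143) and -0.56 ± 0.09 (adjusted p = 0.00097) in Adm+/- mice. The Adm+/- value is close to the fold limit and was -0.50, just inside it, without Adm+/- LPS replicate 12 (adjusted p = 0.00709). Gucy1b3 was 172 to 200 CPM in WT PBS, 123 to 135 CPM in WT LPS, 207 to 212 CPM in Adm+/- PBS and 141 to 153 CPM in Adm+/- LPS, again without overlap. Its log2 fold change was -0.52 ± 0.09 in Adm+/- mice (adjusted p = 0.00113). In WT it was -0.49 ± 0.09 with an adjusted p of 0.00323, short of the fold limit. The Adm+/- call of Gucy1b3 was lost without Adm+/- LPS replicate 12 (-0.49), and its WT value was called in 3 of the 12 fits that leave out 1 library. The log2 ratio of Gucy1a3 to Gucy1b3 counts within a library lay between 1.22 and 1.43 in all 12 libraries. In WT it was lower in every LPS library (1.27 to 1.305) than in any PBS library (1.37 to 1.43), and in Adm+/- mice the ranges overlapped (1.29 to 1.37 in PBS and 1.22 to 1.34 in LPS). Gucy1b3 was also the gene most like Gucy1a3 of all tested (root mean square difference 0.05), ahead of C1qtnf7 (0.08) and Frem1 (0.09), an extracellular matrix protein, against a median of 0.39.

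Pde5a, which removes cGMP, fell as well. It measured 640, 611 and 517 CPM in WT PBS and 325, 353 and 382 CPM in WT LPS, and 620, 707 and 718 CPM in Adm+/- PBS and 355, 384 and 339 CPM in Adm+/- LPS. The ranges were apart in both genotypes. The log2 fold change was -0.74 ± 0.11 in WT (adjusted p = 0.00118) and -0.92 ± 0.11 (adjusted p = 0.00017) in Adm+/- mice, a 1.67-fold and a 1.90-fold fall. The patterns most like Pde5a were those of Enpp1 (0.10), Pcdh18 (0.10) and Alms1 (0.10), against a median of 0.48. Prkg1, the kinase that cGMP activates, did not follow. It was 68.3, 89.2 and 76.7 CPM in WT PBS, 66.1, 77.8 and 68.3 CPM in WT LPS, 73.2, 70.9 and 79.2 CPM in Adm+/- PBS, and 72.8, 75.1 and 76.9 CPM in Adm+/- LPS. The groups overlapped, and the log2 fold changes were -0.14 ± 0.11 in WT (95% confidence interval -0.38 to 0.10) and 0.01 ± 0.11 in Adm+/- mice (-0.23 to 0.25).

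Marker lists of smooth muscle, pericytes and fibroblasts were read beside these genes. The 13 smooth muscle and pericyte genes, led by Acta2, Myh11 and Notch3, summed to 1987 to 2844 CPM in WT PBS and 1596 to 2065 CPM in WT LPS, and to 2059 to 2567 and 1592 to 1838 CPM in Adm+/- PBS and LPS. These sums overlapped between PBS and LPS in WT and not in Adm+/- mice. Of the 13, 3 fell in WT and 2 in Adm+/- mice, where 7.09% and 12.2% of all genes were called lower, and none was at 0 counts in a group. The 8 lung fibroblast genes, led by Col1a1, Limch1 and Npnt, summed to 8523 to 21278 CPM in WT PBS and 5726 to 7861 CPM in WT LPS, and to 8129 to 14686 and 6365 to 7210 CPM in Adm+/- mice, with 2 and 3 falling. The part of these cell types in the results was not tested. Relative to the mean log2 CPM of the smooth muscle and pericyte list, Pde5a was 2.49 to 3.16 in WT PBS and 2.37 to 2.54 in WT LPS, which overlap, and 2.89 to 3.27 and 2.60 to 2.71 in Adm+/- mice, which do not. Gucy1a3 on the same scale overlapped in both genotypes, at 2.33 to 2.83 and 2.12 to 2.45 in WT and at 2.60 to 2.88 and 2.62 to 2.70 in Adm+/- mice. Prkg1 on this scale was -0.26 to 0.30 and -0.12 to 0.29 in WT, and in Adm+/- mice it was higher in every LPS library (0.32 to 0.53) than in any PBS library (-0.19 to 0.09).

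Around these members, 11 genes of cGMP synthesis were listed, of which 9 could be tested. In WT mice 1 rose and 1 fell, and in Adm+/- mice 1 rose and 3 fell, where 17.6% and 25.0% of all genes were called in either direction. Npr1, the natriuretic peptide receptor that makes cGMP, fell in WT (-0.75 ± 0.19, adjusted p = 0.0191) and Adm+/- mice (-0.88 ± 0.19, adjusted p = 0.00558). Npr3, which clears natriuretic peptides, rose in WT (0.57 ± 0.13, adjusted p = 0.00996) and Adm+/- mice (0.62 ± 0.13, adjusted p = 0.00404). Both WT calls were lost without WT LPS replicate 9 (adjusted p = 0.0868 for Npr1 and 0.0537 for Npr3) and in a fit of the WT libraries alone (0.0713 and 0.0527). Of 17 tested genes of cGMP breakdown, kinases and targets, 3 rose and 1 fell in WT mice, and 4 rose and 4 fell in Adm+/- mice, against the same shares of all genes. Of the other phosphodiesterases, Pde1a rose in WT (0.77 ± 0.19, adjusted p = 0.017) and Adm+/- mice (1.11 ± 0.19, adjusted p = 0.00142), as did Pde1b (0.93 ± 0.16, adjusted p = 0.00245, and 0.81 ± 0.16, adjusted p = 0.00288). The WT call of Pde1a was lost without WT LPS replicate 10 (adjusted p = 0.0549). Pde3b, which breaks down cAMP and is inhibited by cGMP, passed the test in WT (-0.62 ± 0.20, adjusted p = 0.046) and Adm+/- mice (-0.67 ± 0.20, adjusted p = 0.0252) with calls that rested on single libraries. The WT call was lost in 9 of the 12 fits that leave out 1 library, with -0.29 (adjusted p = 0.0995) without WT PBS replicate 5, and the Adm+/- call in 5. Pde3a measured -0.33 ± 0.11 and -0.39 ± 0.11, under the fold limit of a call. Abcc4, which exports cyclic nucleotides, rose in WT (0.87 ± 0.19, adjusted p = 0.00795) and Adm+/- mice (1.27 ± 0.19, adjusted p = 0.00054). The second cGMP kinase, Prkg2, fell in Adm+/- mice (-1.53 ± 0.33, adjusted p = 0.00531) and measured -0.17 ± 0.32 in WT (adjusted p = 0.734).

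Edn1 rose in Adm+/- mice. It measured 22.0, 26.3 and 19.6 CPM in WT PBS and 30.8, 32.5 and 23.9 CPM in WT LPS, which overlap. In Adm+/- mice it was 23.6, 21.8 and 22.2 CPM in PBS and 32.95, 41.94 and 31.96 CPM in LPS, which do not. The log2 fold change was 0.36 ± 0.16 in WT (adjusted p = 0.116) and 0.66 ± 0.16 (adjusted p = 0.00782) in Adm+/- mice, a 1.58-fold rise. Relative to the endothelial list, Edn1 was higher in every LPS library than in any PBS library of the same genotype, at -3.65 to -3.15 and -2.95 to -2.48 in WT and -3.46 to -3.41 and -2.61 to -2.08 in Adm+/- mice. Ece1 and Ednrb showed the same separation, so that all 4 genes set against this list, Nos3 among them, were higher in LPS on this scale. The list itself had a median log2 fold change of -0.36 in WT and -0.44 in Adm+/- mice. A gene that did not change is therefore also higher on this scale. For Ece1 the measure was 0.63 to 0.74 and 0.85 to 1.02 in WT, and 0.37 to 0.53 and 0.972 to 1.099 in Adm+/- mice. The patterns most like Edn1 were those of Atf4 (root mean square difference 0.09), a stress-response transcription factor, Cyth3 (0.10) and Ets2 (0.10), also a transcription factor, against a median of 0.42. Ece1, which activates the peptide, was 342, 364 and 414 CPM in WT PBS, 351, 342 and 332 CPM in WT LPS, 364, 303 and 339 CPM in Adm+/- PBS, and 402, 380 and 355 CPM in Adm+/- LPS. Both pairs of groups overlapped. The log2 fold changes were -0.13 ± 0.10 in WT (adjusted p = 0.386) and 0.18 ± 0.10 (adjusted p = 0.207) in Adm+/- mice.

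Ednra rose in Adm+/- mice, and Ednrb was called in neither genotype. Ednra, the constrictor receptor, was 165, 235 and 133 CPM in WT PBS and 208, 203 and 174 CPM in WT LPS. Adm+/- mice had 164, 164 and 184 CPM in PBS and 280, 262 and 266 CPM in LPS. All Adm+/- LPS libraries lay above every other library, while WT PBS spread so widely that it spanned the WT LPS values. The log2 fold change was 0.66 ± 0.17 in Adm+/- mice (adjusted p = 0.013), a 1.58-fold rise, and 0.13 ± 0.17 in WT (adjusted p = 0.593). The rise in Adm+/- mice came with lower smooth muscle and pericyte marker sums, and relative to that list Ednra was 0.976 to 1.303 in PBS and 2.16 to 2.31 in LPS. In WT the same measure was 0.53 to 1.70 and 1.23 to 1.89. The patterns most like Ednra were those of Tgoln1 (0.09), Socs2 (0.10), a cytokine signalling suppressor, and 1700109H08Rik (0.11), against a median of 0.42. Ednrb was 121, 119 and 84.8 CPM in WT PBS, 100, 118 and 124 CPM in WT LPS, 97.7, 102 and 114 CPM in Adm+/- PBS, and 101, 113 and 104 CPM in Adm+/- LPS. Its groups overlapped, with log2 fold changes of 0.08 ± 0.14 in WT (95% confidence interval -0.23 to 0.38) and 0.02 ± 0.14 in Adm+/- mice (-0.28 to 0.33). Relative to the endothelial list Ednrb was -1.55 to -0.87 and -0.78 to -0.57 in WT, and -1.362 to -1.102 and -0.99 to -0.65 in Adm+/- mice, higher in every LPS library. The 5 other markers of the Car4-high capillary cells that carry Ednrb, led by Tbx2, Prx and Apln, summed to 1071 to 2096 and 924 to 1145 CPM in WT, and to 1137 to 1626 and 1060 to 1097 CPM in Adm+/- mice. Of these 5, 0 were called in either genotype, where 17.6% and 25.0% of all genes were. Relative to this shorter list the Ednrb values of PBS and LPS overlapped in both genotypes.

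The upstream bases of Edn1 (chr13:42301226-42301475, plus strand) and Ednra (chr8:77724465-77724702, minus strand), the members called in Adm+/- but not in WT mice, are shown on the same build with the same motifs in capitals.
Edn1: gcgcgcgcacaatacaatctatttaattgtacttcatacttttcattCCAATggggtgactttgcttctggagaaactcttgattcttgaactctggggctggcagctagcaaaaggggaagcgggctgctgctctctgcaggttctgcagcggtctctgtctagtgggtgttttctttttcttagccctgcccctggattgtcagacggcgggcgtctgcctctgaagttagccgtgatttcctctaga
Ednra: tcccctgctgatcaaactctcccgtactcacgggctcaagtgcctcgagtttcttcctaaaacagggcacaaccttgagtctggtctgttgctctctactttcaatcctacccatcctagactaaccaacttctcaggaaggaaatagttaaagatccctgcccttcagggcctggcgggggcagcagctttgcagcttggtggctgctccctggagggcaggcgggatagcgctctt
The Edn1 window holds 1 CCAAT box, and the Ednra window holds none of the letters searched. Searches of both strands for NF-kappa B, AP-1 (TGANTCA), STAT (TTCNNNGAA), hypoxia response (ACGTG) and TATA box (TATAAA) motifs found no match in the 4 windows printed. Over all windows of 250 bases these motifs occur in 7.25%, 6.75%, 7.02%, 16.6% and 12.4%. An absent match says only that these letters are not in these bases. RefSeq windows were found for 8 of the 10 genes, all but Nos2 and Nos3, and of those only Nos1 and Ednrb held an NF-kappa B match, 1 each.

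Within a library, the balance of receptors and of ligands was read as a log2 ratio of counts. Ednra to Ednrb was 0.45 to 0.98 in WT PBS, 0.49 to 1.05 in WT LPS and 0.69 to 0.75 in Adm+/- PBS, and 1.21 to 1.47 in Adm+/- LPS, above all other libraries. Edn1 to Edn3, the gene of another endothelin, was -0.28 to 0.29 in WT PBS and -0.04 to 0.15 in Adm+/- PBS, so that the ligand counts were about equal. In LPS it was 0.63 to 1.56 in WT and 1.53 to 1.93 in Adm+/- mice, with no overlap with PBS. Edn3 itself fell in both genotypes, by a log2 fold change of -0.74 ± 0.15 in WT (adjusted p = 0.00645) and of -1.04 ± 0.15 (adjusted p = 0.00054) in Adm+/- mice. It went from 21.5 to 23.8 CPM in WT PBS to 10.4 to 15.4 CPM in WT LPS, and from 19.6 to 22.9 to between 9.54 and 11.1 CPM in Adm+/- mice.

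**Figure D4:**
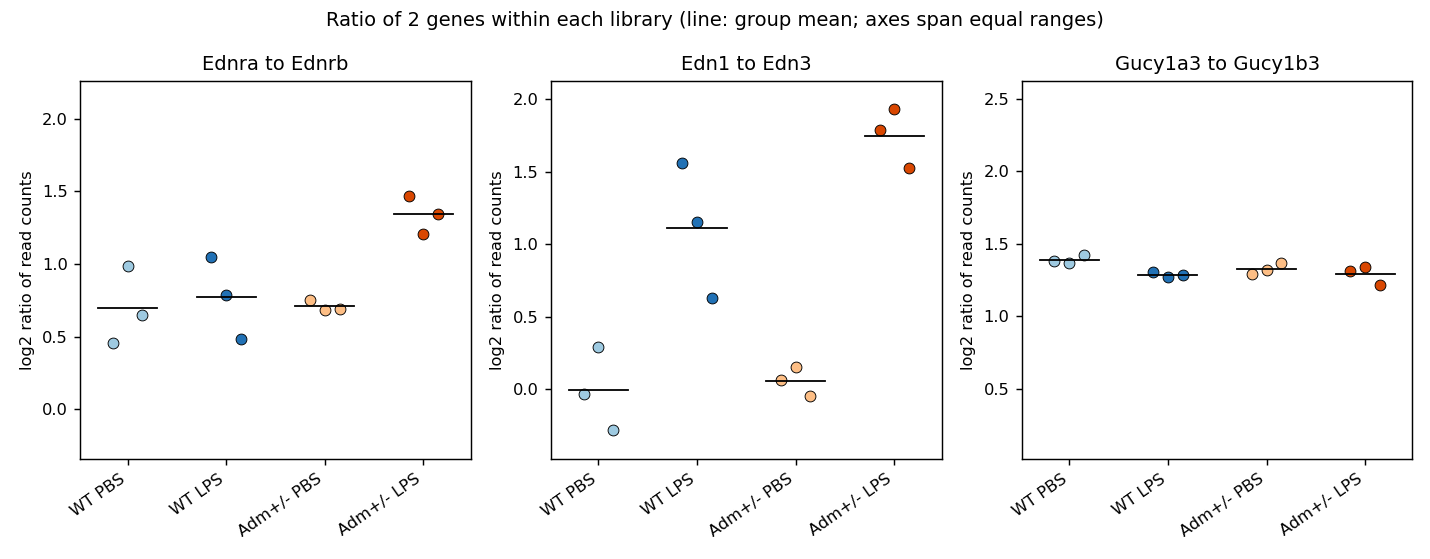
Log2 ratio of read counts of 2 genes within each library (points), with the group mean as a line and axes of equal span. Ednra to Ednrb is highest in the 3 Adm+/- LPS libraries (1.21 to 1.47), Edn1 to Edn3 is higher in every LPS than in any PBS library, and Gucy1a3 to Gucy1b3 lies between 1.22 and 1.43.

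Of the 6 other genes of endothelin processing, ligands and breakdown, 4 could be tested, and Edn3 was the only one called in either genotype. Of 18 genes of the receptors' G proteins and of contraction, 1 rose and 3 fell in WT mice, and 4 rose and 4 fell in Adm+/- mice. Over all genes, 10.5% were called higher and 7.09% lower in WT, and 12.8% and 12.2% in Adm+/- mice. Plcb4, a phospholipase C that acts downstream of the receptors, rose in WT (0.90 ± 0.15, adjusted p = 0.00225) and Adm+/- mice (0.93 ± 0.15, adjusted p = 0.00095). Mylk, the myosin light chain kinase that drives contraction, fell in WT (-0.67 ± 0.14, adjusted p = 0.00748) and Adm+/- mice (-0.69 ± 0.14, adjusted p = 0.00366). Rgs4, which shortens signals of G protein-coupled receptors, rose in Adm+/- mice from 5.79 to 8.75 CPM to between 40.7 and 51.3 CPM (2.61 ± 0.41, adjusted p = 0.00078). In WT it went from 4.76 to 13.8 CPM to between 11.6 and 34.1 CPM (1.201 ± 0.395), beyond the fold limit but not called, since its adjusted p did not pass. Rgs4 in WT was called by edgeR with RLE size factors (adjusted p = 0.0491) and by DESeq2 (adjusted p = 0.0115). With 1 library left out it ranged from 0.70 (without WT LPS replicate 9) to 1.58 (without WT PBS replicate 4) and was called in 2 of 12 fits. Over all 5 lists of further pathway genes, 68 of 73 could be tested. In WT mice 10 rose and 8 fell (26.5%), and in Adm+/- mice 13 rose and 17 fell (44.1%), where 17.6% and 25.0% of all genes were called. Both genotypes called 16 genes, WT alone 2 and Adm+/- alone 14. The same split over all genes is not given here, and more of all genes were called in Adm+/- mice too, so this split is not read as particular to the list. Of the 68, 0 passed the test of a difference between genotypes by edgeR, DESeq2 or limma-voom, and 9 had an unadjusted p below 0.05 by edgeR. A fit of the 6 WT libraries alone called 7 of the 68, and Edn3 (adjusted p = 0.055), Mylk (0.0598), Abcc4 (0.0575) and Pde1a (0.0665) were among the named genes whose WT call it lost. The share of all genes called in that fit is not given here.

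**Figure D5:**
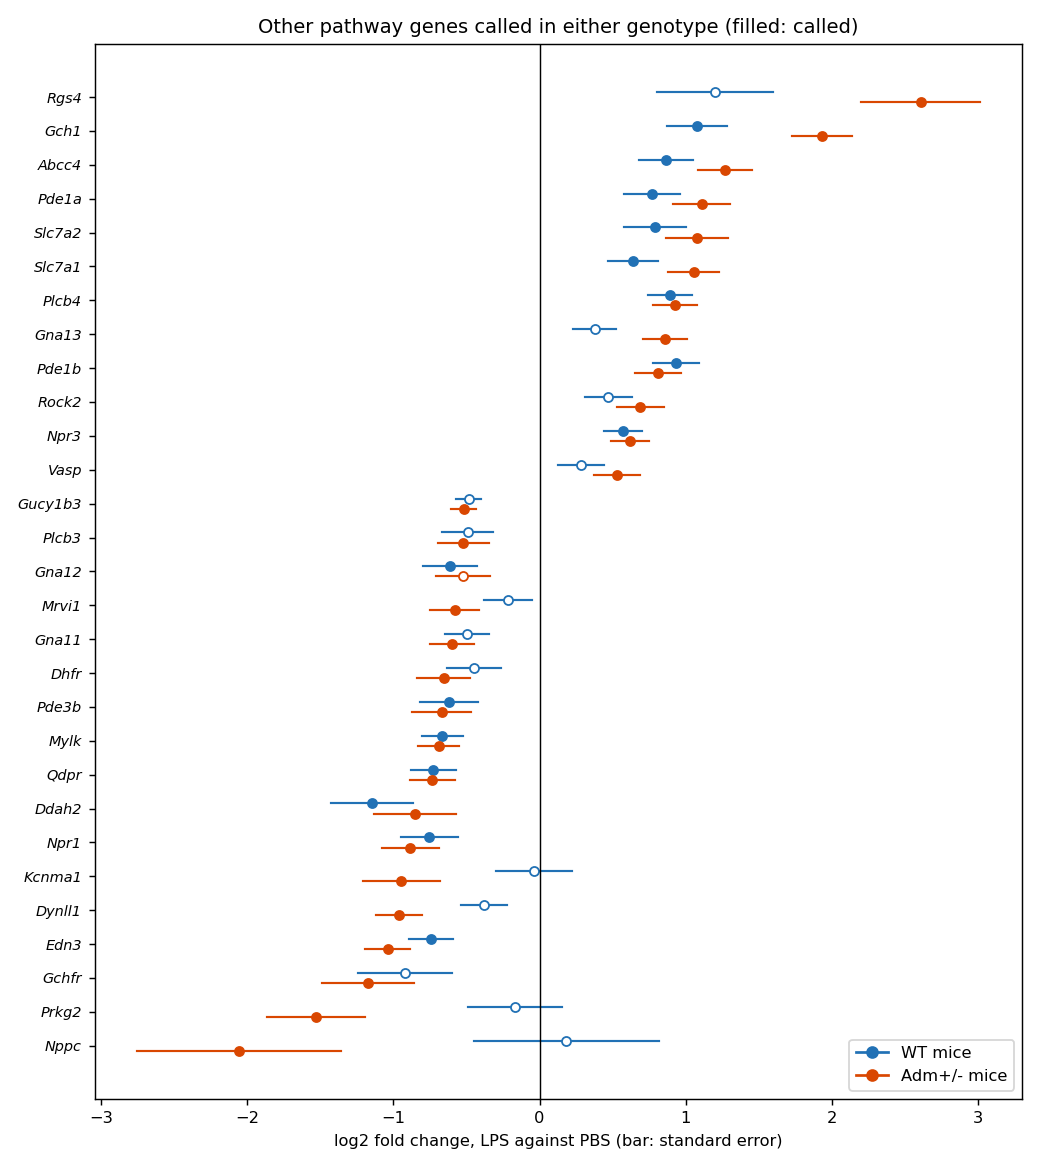
Log2 fold change of LPS against PBS, with the standard error as a bar, for 29 of the 32 further pathway genes called in WT (blue) or Adm+/- mice (orange), with filled points for those called. Among the genes drawn, Rgs4 (2.61) and Gch1 (1.94) show the largest rises in Adm+/- mice.

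Whether the genotypes differed in their LPS response was tested as the difference of the fold changes. No member passed, against 0.145% of all genes. At an unadjusted p below 0.05 there was 1 member, Nos1, with a difference of -2.50 ± 0.56 on the log2 scale. Its adjusted p was 0.176 by edgeR. DESeq2 called it (adjusted p = 0.0127), and limma-voom did not (adjusted p = 0.285). Ednra (0.52 ± 0.24, adjusted p = 0.637), Nos2 (0.76 ± 0.42, adjusted p = 0.75), Ece1 (0.30 ± 0.14, adjusted p = 0.651) and Edn1 (0.30 ± 0.22, adjusted p = 0.876) had positive estimates that did not pass. With 1 library left out, these ranged from 0.27 (without WT PBS replicate 4) to 0.70 for Ednra, from 0.45 (without WT LPS replicate 11) to 1.23 (without WT LPS replicate 9) for Nos2, and from 0.17 (without Adm+/- LPS replicate 2) to 0.40 for Edn1. Edn1 and Ednra being called in Adm+/- and not in WT mice is therefore not a shown difference between genotypes.

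The genotypes were also compared within each treatment, with the same libraries as above. In PBS no member was called, none had an unadjusted p below 0.05, and DESeq2 and limma-voom called 0 members. The share of all genes called was 0%, with 344 of 15885 at an unadjusted p below 0.05. Apart from the thinly counted Nos1, the largest estimates were 0.21 ± 0.11 for Pde5a and -0.155 ± 0.102 for Ece1. In LPS 1 member was called, against 2.05% of all genes. Nos1 was lower in every Adm+/- LPS library than in any WT LPS library (-2.85 ± 0.36, adjusted p = 0.00175), and the skeletal muscle sums given above differed between these groups in the same direction. Ednra was higher in all 3 Adm+/- LPS libraries than in any WT LPS library, but did not pass after adjustment (0.47 ± 0.17, adjusted p = 0.209 by edgeR). Nos2 overlapped (0.71 ± 0.30, adjusted p = 0.298). Without WT LPS replicate 9 its difference was 1.18 and called (adjusted p = 0.0298), and without WT LPS replicate 11 it was 0.40 and not called. Of the further pathway genes, 2 were called, among them Gch1, which was higher in Adm+/- LPS (0.92 ± 0.20, adjusted p = 0.04). That call was lost in 8 of the 12 fits that leave out 1 library.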

How the data were processed

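The mouse libraries were prepared from whole-lung RNA with a directional kit after rRNA depletion. The authors trimmed reads with Trim Galore, used HISAT2 for alignment to mm10 and featureCounts for counting per Gencode gene, as named in the paper and the submitters' processing notes. The deposited values are raw counts without normalization. The Gencode release and the strand option are not given in the sources used here. Totals per library ran from 22382535 to 38062873 counts. Reads carry no molecular identifiers. Each library came from 1 mouse, so p-values measure the spread between these mice. All 12 pairs of libraries of 1 group differed by more than sampling noise.

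Of 21950 protein-coding genes, 15885 passed filterByExpr over the 4 groups and were tested in edgeR 4.0.16 (R 4.3.3) with TMM scaling and the two-sided quasi-likelihood F-test, with 1 coefficient per group, 8 residual degrees of freedom and no covariate. Contrasts (5) were LPS against PBS in each genotype, their difference, and Adm+/- against WT in each treatment. Calls required a Benjamini-Hochberg adjusted p under 0.05 together with a log2 fold change beyond 0.5 in either direction. Fitting was checked on simulated counts. Alternatives used limma 3.58.1, DESeq2 1.42.0, RLE size factors, other filters, fewer libraries and each library left out. Log2 CPM for likeness used a prior count of 2. Positions, exonic lengths and overlaps came from Gencode M21, and upstream sequence from RefSeq (GRCm38.p6), cut at the genes' own Gencode exons.

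The members and lists were chosen with earlier results of these data known, and the motifs and the windows printed after values were seen. Named were the members, Adm, up to 3 called genes per pathway list and comparison with the largest fold change and at least 1 CPM (such as Ddah2 and Gch1), the 3 genes most alike each called member, and the 3 most abundant genes of a marker list. Values of a named gene in the other comparisons are given beside it. Myh4, Tnnc2, Gm15587, Atg9b, Pde3a and Pde3b were named after their values were seen. Of the genes this rule names, 3 are counted in their lists but not reported here.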

Additional observations from a re-analysis of the deposited data

How the results depend on the processing

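Over 30 member fold changes and their alternatives, 574 of 595 values kept direction and call. DESeq2 called 1 member (Nos1) for the difference between genotypes. With 1 library left out, the count of members called ranged from 3 to 4 for LPS in WT, from 4 to 5 for LPS in Adm+/- mice and from 1 to 2 for Adm+/- against WT in LPS. It was 3 for LPS in WT with only the libraries of the comparison. Estimates that changed sign were all uncalled. For LPS in WT these were Nos3 under limma-voom (0.0014), and, without WT PBS replicate 5 and Adm+/- PBS replicate 6, Nos3 (0.1794), Ednra (-0.0394) and Ednrb (-0.0719). In Adm+/- mice they were Prkg1 with all annotated genes (-0.0059) and without those 2 libraries (-0.002), and Ednrb without them (-0.0215). With 1 library left out, Nos3 in WT ranged from -0.1428 to 0.1793, Ednra from -0.0397 to 0.3864 and Ednrb from -0.072 to 0.1618, and in Adm+/- mice Nos1 from -0.1021 to 0.7324, Prkg1 from -0.027 to 0.0543 and Ednrb from -0.0303 to 0.088. The Nos1 rise in WT ranged from 2.73 to 3.14, and the uncalled Prkg2 in WT from -0.7062 to 0.065. Counts of further pathway genes moved more: in WT from 18 to 7 with only the libraries of the comparison and 11 to 24 with 1 library left out, in Adm+/- mice 22 to 34, for the difference between genotypes 0 to 1, and for Adm+/- against WT in LPS from 2 to 1 with limma-voom, 1 with all annotated genes, 0 with only the libraries of the comparison and 0 to 3 with 1 library left out. The share of all genes called in each of these fits is not given here, so the shifts are not shown to be particular to these genes. The cause of these shifts was not tested. No paired analysis was possible because the library numbers in the labels are unique and shared by no groups. Nos1, with 10 to 28 reads outside WT LPS, is the member that depth limits most.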
